A study of Mus musculus with 6 samples.

Results

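*Mup1*, *Mup9* and *Mup17*, which encode major urinary proteins, and *Cfd*, which encodes complement factor D, were described in liver RNA as 4 of the 257 genes in the table the authors deposited. They were selected by name for their measured rise in mice that overexpressed *Zrsr1*, and the table itself holds genes chosen on the same contrast. Their differences between the groups are therefore given as a description, and no p-value of theirs is used as support. Wild-type C57BL/6J mice had received an adeno-associated virus (AAV) that carried *Zrsr1* (TBG-*Zrsr1*, n = 3) or a vector control (TBG-Vec, n = 3), and both groups ate a high-fat diet (HFD) over 13 weeks. The TBG promoter in the vector limits expression of its insert to hepatocytes, so other liver cells were not targeted. All 6 mice carried a virus and ate the HFD, and mice on regular chow or without a virus were not analysed here. The library names of the controls carry GFP, while their titles say Vec, and what the control vector held is not given in the sources used here. Neither sex nor age is stated for the mice, but the paper weighed epididymal fat, a depot of males, in TBG-Vec and TBG-*Zrsr1* mice.

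Major urinary proteins are small lipocalins that hepatocytes secrete into the blood and that the kidney passes into the urine, where they carry pheromones. Their genes form a cluster of near-identical copies, respond to growth hormone and to sex, and are known to be expressed at a lower level in obese mice. Complement factor D, also named adipsin, is the serine protease that cleaves factor B and so starts the alternative complement pathway. It is made mainly by adipocytes and is known to be low in the blood of genetically obese mice. *Zrsr1* encodes a splicing factor of the minor spliceosome.

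The counts of the listed genes summed to 264103, 283414 and 281277 in TBG-Vec mice 1, 2 and 3, and to 231429, 174448 and 227278 in TBG-*Zrsr1* mice 1, 2 and 3. These sums cover the listed genes alone, and the depth of the libraries is unknown. *Zrsr1* was counted 194, 197 and 202 times in the TBG-Vec mice and 4383, 4479 and 4405 times in the TBG-*Zrsr1* mice, so the *Zrsr1* level of each library fits its label. The values below are counts as deposited, compared without rescaling between libraries, and a log2 fold change is TBG-*Zrsr1* minus TBG-Vec from edgeR's quasi-likelihood fit over all 257 genes. In bulk liver RNA, more RNA per hepatocyte and more cells that express a gene cannot be told apart.

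*Mup9* had the largest rise of the 4 genes. It was counted 110, 247 and 68 times in TBG-Vec mice 1, 2 and 3, and 1292, 1937 and 624 times in TBG-*Zrsr1* mice 1, 2 and 3. The groups did not overlap, and the lowest TBG-*Zrsr1* mouse had 2.53 times the count of the highest TBG-Vec mouse. The means were 142 ± 93.6 and 1284 ± 656 counts (SD, n = 3 each). Their ratio was 9.07, and the fit gave a log2 fold change of 3.18 with a standard error of 0.46. *Mup9* ranked 3 of 257 by log2 fold change, between *Cxcl1*, a neutrophil-attracting chemokine, at 3.22 and *Commd1*, a copper transport gene, at 2.39. The order with *Cxcl1* depended on the scaling, since at equal totals *Mup9* was above it, at 3.66 and 3.61, as under the 3 other rescalings. It depended on single mice as well. Without rescaling, *Mup9* was above *Cxcl1* without TBG-Vec mouse 2 (3.85 and 3.29) and without TBG-*Zrsr1* mouse 3 (3.51 and 3.15).

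*Mup17* had the highest counts of the 4 genes. They were 2261, 4008 and 1038 in TBG-Vec mice 1, 2 and 3, and 7810, 10809 and 5915 in TBG-*Zrsr1* mice 1, 2 and 3. The groups were apart, with a factor of 1.48 between TBG-*Zrsr1* mouse 3, the lowest of its group, and TBG-Vec mouse 2, the highest. Means of 2436 ± 1493 and 8178 ± 2468 counts (SD, n = 3 each) went with a log2 fold change of 1.75 and a standard error of 0.39. *Mup1*, the remaining copy in the table, was counted 759, 1996 and 499 times in TBG-Vec mice 1, 2 and 3, and 3582, 2968 and 2141 times in TBG-*Zrsr1* mice 1, 2 and 3. The groups of *Mup1* were separated by little, since TBG-Vec mouse 2 came within 1.07 times of TBG-*Zrsr1* mouse 3. *Mup1* averaged 1085 ± 800 and 2897 ± 723 counts (SD, n = 3 each), and its log2 fold change was 1.42, with a standard error of 0.40. Summed over the 3 copies, which leaves aside how reads were divided among them, the counts were 3130, 6251 and 1605 in TBG-Vec mice and 12684, 15714 and 8680 in TBG-*Zrsr1* mice. For this sum the log2 fold change was 1.75, with a standard error of 0.37.

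*Cfd* differed from *Mup9* and *Mup17* in the mouse that was highest after *Zrsr1*. It was counted 375, 607 and 100 times in TBG-Vec mice 1, 2 and 3, and 2397, 1024 and 1626 times in TBG-*Zrsr1* mice 1, 2 and 3. The groups did not overlap, and TBG-*Zrsr1* mouse 2, the highest for *Mup9* and *Mup17*, was the lowest of its group for *Cfd*. The means of *Cfd* were 361 ± 254 and 1682 ± 688 counts (SD, n = 3 each), 4.66 times apart. Its log2 fold change was 2.22, with a standard error of 0.48. *Cfd* and *Mup17* were neighbours by log2 fold change, at ranks 5 and 6 of 257. *Mt2*, a metallothionein, followed *Mup17* at 1.68, and *Mup1* at rank 11 lay between the transcription factor *Junb* at 1.42 and the adhesion receptor *Adgrv1* at 1.38. Under each rescaling *Mup1* was above *Junb*, at 1.84 and 1.82 with equal totals.

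**Figure D1:**
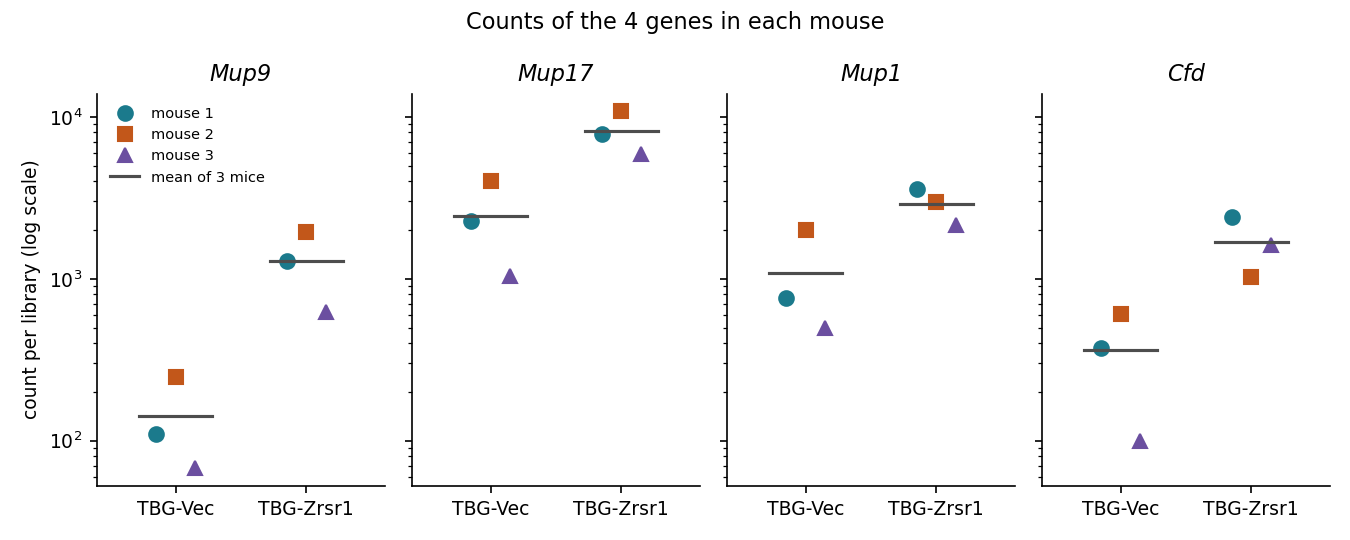
Counts of *Mup9*, *Mup17*, *Mup1* and *Cfd* on a logarithmic axis in each of the 6 mice, with a marker for each mouse and a line at the group mean. Mouse 2 is the highest TBG-Vec mouse and mouse 3 the lowest in all 4 panels, while the order in the TBG-*Zrsr1* mice differs between panels.

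At an adjusted p under 0.05 and a fold above 1.5, edgeR called all 4 genes higher, beside 18.7% of the 257 listed genes. In all 4 every TBG-*Zrsr1* mouse lay above every TBG-Vec mouse, beside 25.3% of the listed genes, and the groups did not overlap in either direction for 99.2% of them. The members and the table were selected on this contrast, so nothing is read from these calls or shares. TBG-Vec mouse 2 set the size of the rise more than any other mouse. Without it the log2 fold changes were 3.85 for *Mup9*, 2.31 for *Mup17*, 2.20 for *Mup1* and 2.82 for *Cfd*.

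The 4 genes shared an order among the control mice. In TBG-Vec, mouse 2 was highest, mouse 1 intermediate and mouse 3 lowest for each of them, an order held by 42 of the 257 genes (16.3%). Mouse 2 had 4.00 times the count of mouse 3 for *Mup1*, 3.63 times for *Mup9*, 3.86 times for *Mup17* and 6.07 times for *Cfd*. Mouse 1 had 1.52, 1.62, 2.18 and 3.75 times the count of mouse 3 for *Mup1*, *Mup9*, *Mup17* and *Cfd*, so the Mup genes lay closer together in the former factor than in the latter. The listed-gene total of mouse 2 was 1.01 times that of mouse 3. These are 3 mice, and a relation between genes across them cannot be tested.

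The shared order was not kept in TBG-*Zrsr1* mice. *Mup9* and *Mup17* again had mouse 2 highest and mouse 3 lowest, with 3.10 and 1.83 times between them. *Mup1* was highest in mouse 1, by 1.21 times over mouse 2, and *Cfd* was highest in mouse 1 and lowest in mouse 2, by 2.34 times. The order of *Mup1* depended on the scaling, because the listed-gene total of TBG-*Zrsr1* mouse 2 was the lowest of the 6. As a percentage of that total, *Mup1* made up 1.55%, 1.70% and 0.942% in mice 1, 2 and 3, which is the order of *Mup9* and *Mup17*. *Cfd* at 1.04%, 0.587% and 0.715% kept its own order. The lipogenic gene *Scd1* alone gave 92870, 53326 and 97722 of the listed counts of TBG-*Zrsr1* mice 1, 2 and 3. These percentages thus lean on that gene, and a total without it was not used.

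The spread between control mice set these genes apart from most of the list. The coefficient of variation (CV, the SD as a percentage of the mean) in TBG-Vec mice was 73.7% for *Mup1*, 70.4% for *Cfd*, 66.1% for *Mup9* and 61.3% for *Mup17*. These ranked 1, 2, 3 and 5 of 257, where the median was 12.1%. In TBG-*Zrsr1* mice the CVs were 24.96% for *Mup1*, 40.9% for *Cfd*, 51.1% for *Mup9* and 30.2% for *Mup17*, at ranks 50, 9, 6 and 30, with a median of 15.6% over all genes. These CVs depend on the scaling, and the listed-gene total used next leans on *Scd1*. With all libraries brought to the same listed-gene total, the TBG-Vec CV of *Mup9* was 63.8% and its TBG-*Zrsr1* CV 65.6%, so that its spread was no longer the smaller one after *Zrsr1*. That of *Mup17* was 59.4% and 46.6%, that of *Mup1* 71.3% and 28.7%, and that of *Cfd* 68.8% and 29.7%. With 3 mice in a group, the difference in spread between the groups was not tested.

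**Figure D2:**
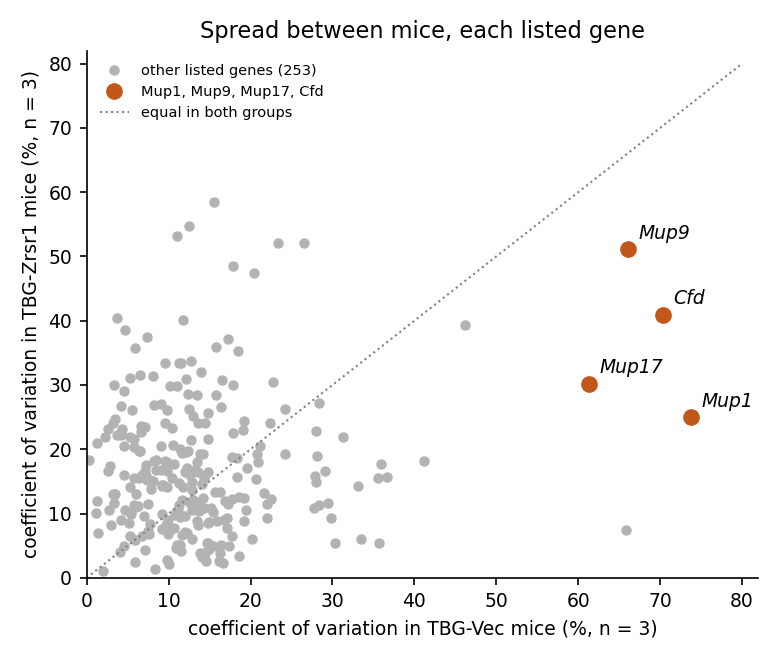
Coefficient of variation of each listed gene among the 3 TBG-Vec mice (horizontal axis, %) and among the 3 TBG-*Zrsr1* mice (vertical axis, %), from the counts as deposited, with the 4 genes in orange and the dotted line at equal spread. *Mup1*, *Mup9*, *Mup17* and *Cfd* lie far to the right and below the line, between 61.3% and 73.7% in TBG-Vec and between 24.96% and 51.1% in TBG-*Zrsr1*, though *Mup9* would lie above the line at equal totals.

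The counts of the Mup genes did not rise by the same factor. A ratio between genes of the same library does not depend on the scaling between libraries, and counts were divided by transcript length. *Mup17* had 18.1, 14.3 and 13.5 times the counts per kb of *Mup9* in TBG-Vec mice 1, 2 and 3, and 5.33, 4.92 and 8.36 times in TBG-*Zrsr1* mice 1, 2 and 3. The groups did not overlap, with means of 15.3 ± 2.48 and 6.20 ± 1.88 (SD, n = 3 each). The ratio of *Mup1* to *Mup9* per kb was 6.82, 7.99 and 7.26 in the TBG-Vec mice and 2.74, 1.51 and 3.39 in the TBG-*Zrsr1* mice, again without overlap. In contrast, the ratio of *Mup17* to *Mup1* per kb overlapped, at 2.66, 1.79 and 1.85 in TBG-Vec and 1.94, 3.25 and 2.46 in TBG-*Zrsr1*. *Mup9* stayed the lowest of the 3 per kb in every mouse, and it was the ratios to it that differed in size between the groups.

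The share of *Mup9* in the summed counts of the 3 copies showed the same in each library. It was 3.51% (95% Clopper-Pearson interval 2.90% to 4.22%), 3.95% (3.48% to 4.46%) and 4.24% (3.30% to 5.34%) in TBG-Vec mice 1, 2 and 3. In TBG-*Zrsr1* mice 1, 2 and 3 it was 10.2% (9.66% to 10.7%), 12.3% (11.8% to 12.8%) and 7.19% (6.65% to 7.75%). The control intervals overlapped each other although the summed counts differed 3.89 times between mice, and none of them reached those of the TBG-*Zrsr1* mice. The intervals cover counting error only.

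**Figure D3:**
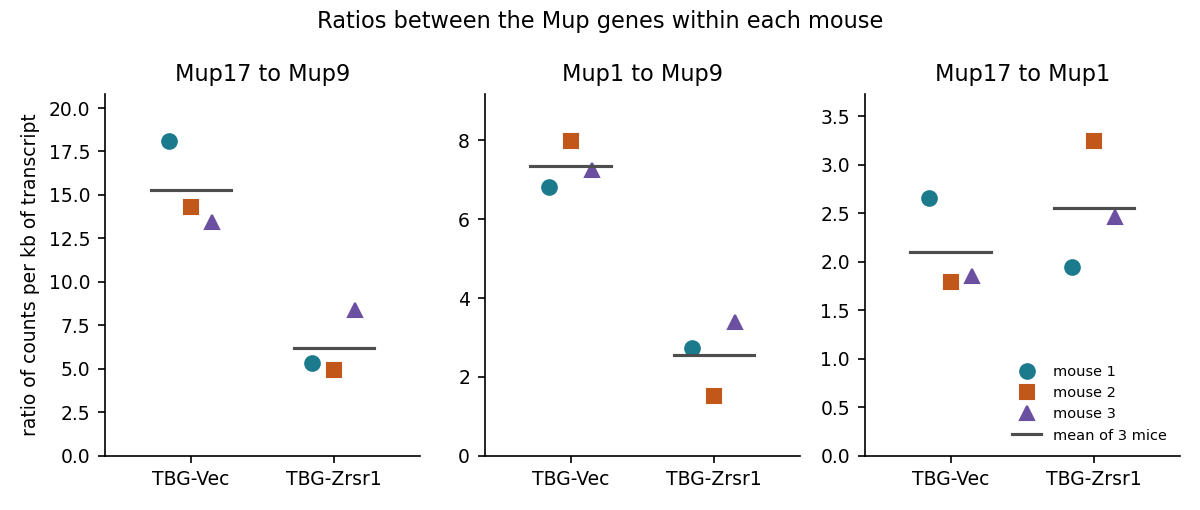
Ratios between the Mup genes in each mouse, as counts per kb of transcript on linear axes that start at 0, with a marker for each mouse and a line at the mean of 3 mice. Both ratios to *Mup9* are separated between the groups, lower with *Zrsr1*, and the ratio of *Mup17* to *Mup1* overlaps between the groups.

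These copies share much of their sequence, and the counts can carry reads from paralogs. GENCODE M39 lists 22 protein-coding Mup genes between positions 59956804 and 62069175 of chromosome 4 of GRCm39, with 26 Mup pseudogenes on that chromosome. *Mup9* lies at chr4:60374041-60377954, *Mup1* at chr4:60453986-60458057 and *Mup17* at chr4:61510140-61514185, all on the minus strand. *Cfd* is outside the cluster, at chr10:79726668-79728496 on the plus strand. *Mup1* overlaps the long non-coding RNA gene *Gm13773* and *Mup17* an unnamed one, both on the opposite strand, and whether the counting used strand is not given in the sources used here.

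Each transcript was divided into all its windows of 100 bases. Of these, 83.3% of the *Mup9* windows (655 of 786), 74.4% of the *Mup1* windows (592 of 796) and 55.9% of the *Mup17* windows (506 of 905) occurred without a mismatch in another annotated gene. For *Cfd* it was 0 of 844, so its counts are not touched by this. No gene outside the Mup family held such a window. *Mup9* shared most with *Mup19* (75.1% of its windows) and *Mup18* (66.7%), which are not in the table, and it shared 48.1% with *Mup1* and 33.5% with *Mup17*. *Mup1* shared most with *Mup12* (68.5%), and *Mup17* with *Mup13* (30.6%). Reads from *Mup18* or *Mup19* could therefore be counted as *Mup9*, and the rise of *Mup9* cannot be told apart from a rise of these paralogs in most of its length.

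**Figure D4:**
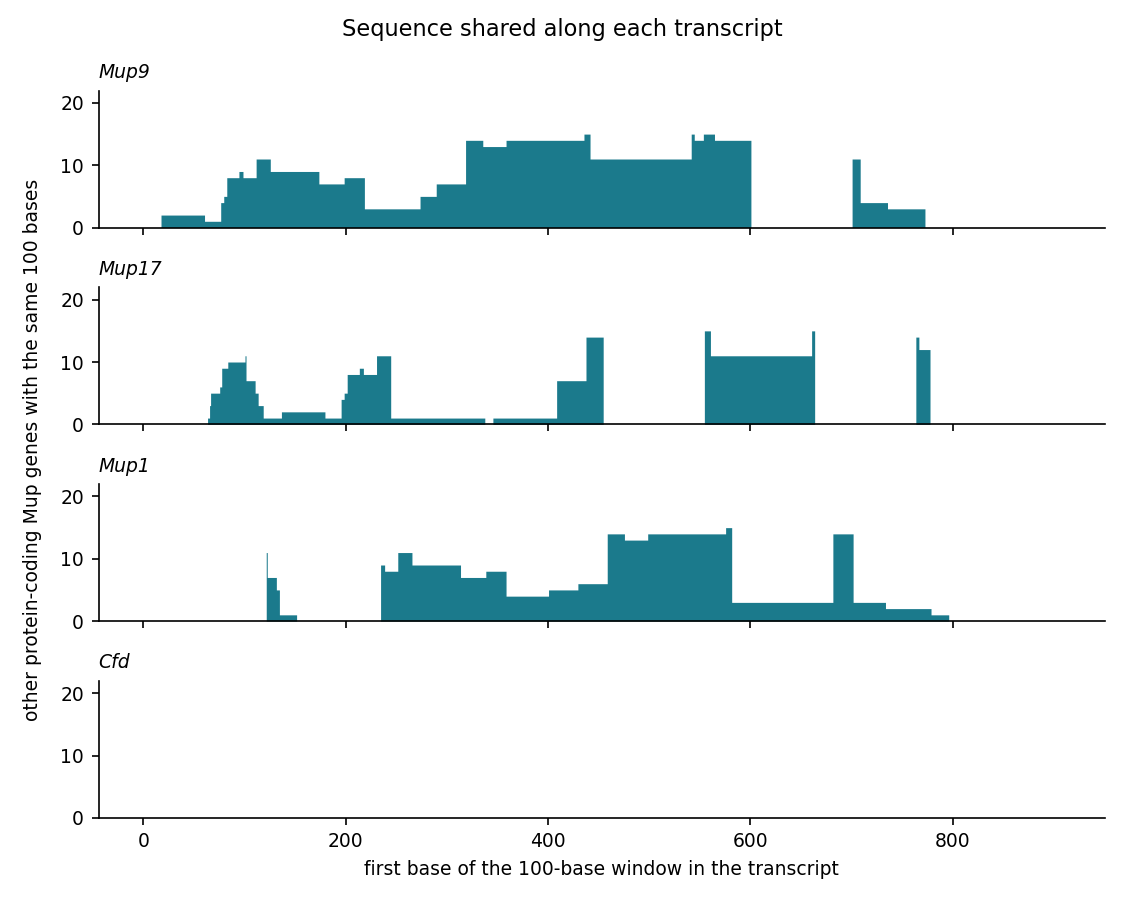
Number of other protein-coding Mup genes that hold the same 100 bases (vertical axis) at each window along the transcripts of *Mup9*, *Mup17*, *Mup1* and *Cfd* (horizontal axis, first base of the window). Windows of *Mup9* are shared along most of the transcript with up to 15 genes, *Mup17* has long stretches with none, and *Cfd* has 0 throughout.

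In the coding sequence the copies differ at few positions. Without the stop codon each is 540 bases long, and *Mup9* differed from *Mup1* at 3 bases, *Mup9* from *Mup17* at 4 and *Mup1* from *Mup17* at 7. The stretch of 120 bases that holds most of the differing positions, 4 of 7, is shown for the 3 copies from coding base 135 to 254, counted from the start codon. It is shown because it holds bases by which these 3 copies differ. Capitals mark the positions at which the 3 copies are not all the same, in sequences taken from the GENCODE transcripts.
*Mup1*: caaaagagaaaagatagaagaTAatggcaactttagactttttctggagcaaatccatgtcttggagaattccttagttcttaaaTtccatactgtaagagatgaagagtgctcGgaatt
*Mup9*: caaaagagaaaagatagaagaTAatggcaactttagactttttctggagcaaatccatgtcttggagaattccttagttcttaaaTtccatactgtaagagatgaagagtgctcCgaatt
*Mup17*: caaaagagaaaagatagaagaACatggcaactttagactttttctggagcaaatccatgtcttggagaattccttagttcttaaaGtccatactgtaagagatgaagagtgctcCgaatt
In this stretch *Mup1* and *Mup9* differ only at the last capital and *Mup9* and *Mup17* only at the others. The bases that set *Mup9* apart here are not its own, since at each of the 7 positions at least 5 of the 13 Mup genes with a coding sequence of this length carry the base of *Mup9*.

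How the levels of the copies compare depends on how shared reads were counted. Per kb of transcript, the mean TBG-Vec level was 2426 ± 1487 for *Mup17*, 1212 ± 894 for *Mup1*, 382 ± 269 for *Cfd* and 160 ± 106 for *Mup9* (SD, n = 3 each). With *Zrsr1* the counts per kb were 8145 ± 2458, 3237 ± 808, 1784 ± 730 and 1451 ± 742 in the same order. Neighbours in this order overlapped between mice for *Mup1* with *Cfd* and *Cfd* with *Mup9* in both groups, and for *Mup17* with *Mup1* in TBG-Vec only. In each of the 6 mice *Mup17* was above *Mup1* and *Mup1* above *Mup9*. With 1 mismatch allowed, *Mup9* had 9 windows of 100 bases found in no other gene, and *Mup1* and *Mup17* had 94 each. Divided by these numbers, a scale chosen after seeing the data, counts per 100 such windows were 14270 ± 7295 for *Mup9* and 8700 ± 2625 for *Mup17* in TBG-*Zrsr1* mice (SD, n = 3 each), with *Mup9* above *Mup17*. In TBG-Vec mice they were 1574 ± 1040 and 2591 ± 1588, with *Mup17* above. The order of the copies is thus not settled by these counts, while the rise of each copy, a comparison of the same gene between mice, does not use the length.

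Promoter sequences from RefSeq, on GRCm38.p6, were found for 3 of the 4 genes, *Mup9*, *Mup17* and *Cfd*, and not for *Mup1*. Each covers 250 bases before the gene start and 50 after it. *Mup9* and *Mup17*, whose counts rose by different factors, had 288 identical bases in an alignment of 294 positions, with 4 that differ and 2 gaps. The part of it upstream of every RefSeq start of both genes is shown, chr4:60422086-60422202 for *Mup9* and chr4:61595958-61596074 for *Mup17*, both on the minus strand, with the only differing base in capitals.
*Mup9*: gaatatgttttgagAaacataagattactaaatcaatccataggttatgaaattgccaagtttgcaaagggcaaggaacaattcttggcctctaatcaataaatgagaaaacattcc
*Mup17*: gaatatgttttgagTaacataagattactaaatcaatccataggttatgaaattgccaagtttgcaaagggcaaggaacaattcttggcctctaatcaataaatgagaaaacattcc
The TATA box core TATAA was found in sense at position −29 of *Mup9* and −23 of *Mup17*, relative to the gene start, and in neither orientation in *Cfd*. Of 32851 promoters of the same length, 24.9% hold it on either strand. TTCNNNGAA, the element bound by STAT factors (8.3% of promoters), the nuclear receptor half-site AGGTCA (16.3%), the E-box CACGTG (7.2%), the glucocorticoid receptor half-site TGTTCT (19.0%) and the C/EBP element TTGCNNAA (10.8%) were each searched on both strands. None of these letters occurred in the 3 windows. A match is a description of letters, and from the absence of a match nothing is drawn.

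The genes most like each member were taken by the root mean square difference over the 6 mice of log2(count + 1), each gene relative to its own TBG-Vec mean. *Mup1* and *Mup17* were nearest to each other, with a difference of 0.34, where the median over all listed genes was 1.67 from *Mup1* and 1.85 from *Mup17*. The next gene for both was a locus the table names LOC102631971, at 0.47 from *Mup1* and 0.52 from *Mup17*. By this gene number RefSeq names it *Mup-ps15*, a Mup pseudogene locus between *Mup18* and *Mup19* on chromosome 4. It was counted 17, 26 and 5 times in TBG-Vec mice 1, 2 and 3, and 31, 36 and 34 times in TBG-*Zrsr1* mice 1, 2 and 3. The TBG-Vec order of the 4 members was thus also that of the pseudogene, whose CV of 65.8% ranked 4 of 257, directly among theirs. In GENCODE the pseudogene lies on the opposite strand to the 3 Mup genes, at chr4:61617078-61619781 of GRCm39. Its transcript of 539 bases shares 0 of 490 windows of 50 bases with any of them, though RefSeq's model of the locus may hold other sequence. Of its 515 windows of 25 bases, it shares 6 with *Mup1*, 7 with *Mup9* and 15 with *Mup17*.

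The third gene for *Mup1* was *Adgrv1* (0.48), and for *Mup17* it was the acute-phase gene *Saa1* (0.64). *Mup9* was nearest to *Cxcl1* (0.69), *Cfd* (0.95) and *Commd1* (0.95), all farther away than the other Mup genes were from each other. *Cfd* was nearest to *Mup17* (0.72), *Mup1* (0.79) and *Cxcl1* (0.83). *Cxcl1* was counted 67, 59 and 36 times in TBG-Vec mice and 499, 460 and 553 times with *Zrsr1*. It shared the size of the rise with *Mup9* but not the order of the mice, with mouse 1 highest in TBG-Vec and mouse 3 highest with *Zrsr1*. Likeness here includes the rise on which all of these genes were listed.

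Other genes of the same families and settings were few in the table. Of 22 Mup genes 3 had values, of 12 genes of the alternative complement pathway only *Cfd*, and of 19 adipocyte markers again only *Cfd*, the others, *Adipoq* and *Lep* included, being outside the table and not analysed here. A part of adipose tissue RNA in the *Cfd* counts was not tested. Among 21 genes of growth hormone and STAT5 signalling only *Socs3*, an inhibitor of that pathway, had values, at 79.3 ± 22.2 and 219 ± 49.97 counts (SD, n = 3 each). Its log2 fold change of 1.47 was close to that of *Mup1*, but its TBG-Vec order was the reverse for mouse 3, which was highest with 103 counts. The 2 female-biased genes in the table, of 28, were the thioesterases *Acot3* and *Acot4*, with log2 fold changes of −1.33 and −0.75. *Acot4* was not called without TBG-*Zrsr1* mouse 2 (−0.47) or under any rescaling (−0.40 with equal totals, −0.26 with TMM). *Acot3* was not called with TMM (−0.84). The list of 22 male-biased genes had none in the table, but it held none of the 3 Mup genes, which respond to sex.

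Of 22 fasting, gluconeogenic and insulin-responsive genes, 4 had values, with a median log2 fold change of −0.53, beside −0.54 for all listed genes. *Pdk4*, which restrains pyruvate oxidation, had a log2 fold change of −1.16 and the glycolytic *Pklr* of −0.59, both called lower. *Pklr* was not called without TBG-Vec mouse 2 (−0.42) or without TBG-*Zrsr1* mouse 2 (−0.52) or 3 (−0.57). Its call was also lost with the mouse number as a replicate block (−0.57) and in limma (−0.57). *Srebf1* and *G6pc*, each at −0.47, did not reach the fold of 1.5. *G6pc* was called lower without TBG-*Zrsr1* mouse 2 (−0.63). *G6pc* was also the only 1 of 15 hepatocyte markers in the table. Markers of other liver cells moved in both directions. *Cd163*, the 1 of 17 macrophage and Kupffer cell markers in the table, rose from 90.0 ± 26.2 to 155 ± 25.7 counts (SD, n = 3 each). The stellate cell and fibroblast markers *Col1a1* and *Col3a1*, 2 of 14, had log2 fold changes of −1.37 and −0.95. Without TBG-Vec mouse 3 *Cd163* was under the threshold at 0.56, and its part in the values of the 4 genes was not tested. The other 9 of the 18 lists, with 159 genes, had none in the table. Among them were the lists of other lipocalins, of classical, lectin and terminal complement genes, of 32 secreted hepatocyte proteins and of clock genes. Those of neutrophil, lymphocyte, endothelial and cholangiocyte markers had none either. The lists were not complete. The serum amyloid A genes *Saa1*, *Saa2* and *Saa4*, also secreted by the liver, were on none of them. Their log2 fold changes were 1.57, 1.01 and 0.81, and all were called higher. Equal totals, DESeq2 size factors and TMM over the listed genes shifted the median log2 fold change by 0.39, 0.47 and 0.52. The 4 genes stayed higher under each scaling. Of the 6 list genes called lower, *Col1a1* was still called under each, and *Acot3* under each but TMM. *Acot4*, *Pdk4* (−0.80 with equal totals, −0.66 with TMM), *Pklr* (−0.19 and −0.07) and *Col3a1* (−0.56 and −0.44) were called under none. *Srebf1* and *G6pc* were at −0.08 and −0.03 with equal totals, and at 0.05 and 0.08 with TMM.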

How the data were processed

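Liver mRNA enriched with oligo(dT) beads was sequenced for 6 mice. The values were the deposited whole-number count of each gene in each mouse, and 3 columns with the authors' own mean, fold change and p-value were not used. The sources differ on how the counts were made. The methods of the paper name FastQC, HISAT2 on GRCm39, HTSeq and DESeq2, and the submitters' processing notes name mm10, Bowtie2, RSEM 1.3.1 and DESeq2 1.4.5. HTSeq by default leaves out reads that align to several places, and RSEM divides them among genes. Which treatment the Mup counts had, and any scaling before deposit, is not given in the sources used here.

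Counts were fitted with edgeR 4.0.16 in R 4.3.3 (glmQLFit, glmQLFTest) with the same library size for all mice, as totals over a selected list are not depths. filterByExpr kept all 257 genes, over which p was adjusted by Benjamini-Hochberg. The standard error is the absolute log2 fold change over the square root of F. The fit was tested on simulated data. DESeq2 1.42.0 and limma 3.58.1 were alternatives. The SDs describe the spread between these mice. The p-values set the group difference against a spread between mice that the fit estimates in part from all listed genes. Windows were matched against all GENCODE M39 transcripts, using the transcript of each gene with a consensus coding sequence. Matches without a mismatch were sought on both strands, and those with 1 mismatch on the sense strand only. Named genes were the members, the 3 genes most like each, their neighbours by log2 fold change, the list genes in the table and *Zrsr1*. *Saa2*, *Saa4* and *Scd1* were named after their values were seen. The members and lists were chosen with earlier results of these data known.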

Additional observations from a re-analysis of the deposited data

How the results depend on the processing

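The 4 members were above the threshold under each alternative, which is no sign of stability, since the choice of members fixed their direction. Leaving out each mouse in turn, the log2 fold change ran from 2.76 to 3.85 for *Mup9*, 1.78 to 2.82 for *Cfd*, 1.38 to 2.31 for *Mup17* and 1.07 to 2.20 for *Mup1*. The 3 Mup genes summed gave 1.75 in place of the 3.18 of *Mup9* alone. The mouse numbers were not taken to pair the groups. The correlations of same-numbered deviations over the listed genes were −0.107, 0.031 and 0.055, and such values cannot show whether mice were matched by design. With the number as a replicate block, 49 genes were called higher and 107 lower, and *Mup9*, *Cfd*, *Mup17* and *Mup1* had log2 fold changes of 3.24, 2.46, 1.91 and 1.64.

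Over all listed genes, 48 were called higher and 108 lower. DESeq2 size factors, TMM and equal totals in edgeR and the DESeq2 Wald test with its size factors left 13, 10, 17 and 12 lower and each gave 65 higher, so higher genes made up 83.3%, 86.7%, 79.3% and 84.4% of the calls, against 30.8%. *Zrsr1* then had log2 fold changes of 4.97, 5.01, 4.90 and 4.97, against 4.48. Called lower among the list genes were 2, 1, 2 and 2, against 6. A mean of at least 100 counts, which tests fewer genes, left 26 higher and 36 lower. A fold above 2 left 15 higher and 19 lower, and 1 higher and 3 lower among the list genes, and adjusted p alone gave 192 lower. Without single mice 67 (without TBG-*Zrsr1* mouse 2) to 130 genes were lower, and 1 to 2 list genes were higher.

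With windows of 50 bases, of 150 bases and of 100 bases with 1 mismatch, the shared percentage was 83.0%, 68.6% and 88.2% for *Mup1*, 90.3%, 75.3% and 98.9% for *Mup9* and 73.3%, 37.3% and 89.6% for *Mup17*. Chosen after seeing the data, counts per window found in no other gene gave mean ratios of *Mup17* to *Mup9* of 5.70 in TBG-Vec and 2.31 with *Zrsr1*, and 1.66 and 0.674 with 1 mismatch allowed. The ratio of *Mup1* to *Mup9* was 4.78 in TBG-Vec and 1.66 with *Zrsr1* by the former, and 0.712 and 0.247 for the 2 groups with 1 mismatch. Where calls moved, the cause was not tested. The depth of the libraries is unknown, which limits the comparison between mice to the counts as deposited.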
